A study of Mus musculus with 8 samples.

Results

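The genes described here are the 44 of 14012 genes in the deposited table that carry fatty acids into the muscle fibre, store and release them as triglyceride, activate them, pass them through the carnitine shuttle and oxidize them in the mitochondrial matrix, with the uncoupling proteins Ucp2 and Ucp3. They were chosen by name for these roles, with earlier results of these data known, and all 44 were in the table. Long-chain fatty acids enter the fibre through carriers such as CD36, are held in lipid droplets or joined to coenzyme A by acyl-CoA synthetases, and cross the inner mitochondrial membrane as carnitine esters. In the matrix each turn of the oxidation spiral removes a short unit through a dehydrogenase, a hydratase, another dehydrogenase and a thiolase, and the first of these steps passes its electrons to the electron transfer flavoprotein. Oxidative muscle draws much of its energy at rest and during long exercise from this route, and nuclear receptors of the PPAR and ERR families are known to switch many of its genes on.

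Polyadenylated RNA was sequenced from the quadriceps femoris (QF), a large thigh muscle, of 4 mice labelled as the skeletal muscle knockout Grpel1skm-/- and 4 labelled as Grpel1 flox/flox control, with 1 library per mouse. GRPEL1 is the nucleotide exchange factor of the HSP70 chaperone that pulls proteins into the mitochondrial matrix. In the knockout, both floxed copies of Grpel1 are deleted by a Cre recombinase that is made from the human skeletal actin promoter and turned on by tamoxifen, and the controls carry the same floxed copies. The Cre acts in muscle fibres, so other cells of the tissue keep the gene. The study describes its animals as male and took muscle at an end point of rapid atrophy. The labels give no age and no treatment for the libraries. The study speaks of floxed littermates left without tamoxifen. Its weight curves include floxed mice with Cre but no tamoxifen, floxed mice with tamoxifen but no Cre, and wild type mice with both. Which of these floxed mice gave the control libraries is not stated, so effects of tamoxifen, of Cre and of the deletion cannot be told apart. The count of the whole Grpel1 gene did not check the labels: it was 68.4 ± 3.04 CPM in control mice and 65.3 ± 6.11 CPM in knockout mice (SD, n = 4 each; log2 fold change -0.066, SE 0.078). The groups are therefore named by their labels. The study itself found less GRPEL1 protein in knockout QF muscle by immunoblot and immunostaining. It does not say whether those were the mice of these libraries. In whole muscle, fewer cells of a type and less RNA per cell cannot be told apart.

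The libraries held 16017565 to 20361144 counts on genes. CPM here are counts scaled to library size after edgeR's TMM scaling, which corrects the library size for the share taken by a few abundant genes, and its factors were 0.75 to 0.84 in control mice and 1.19 to 1.33 in knockout mice. The scaling sets the direction of small differences. With TMM all genes had a median log2 fold change of 0.065, and with library totals alone it was 0.73. The median of the 44 genes lay below that of all genes by 0.41 on the log2 scale either way, but was itself -0.35 with TMM and 0.32 with totals alone. Directions below are those of TMM-scaled libraries. Every gene named below that changed sign with totals alone is given with that value, but listed genes that are only counted are not. Of 9 skeletal muscle fibre markers, whose summed level was 206874 to 263476 CPM in control mice and 72144 to 102205 CPM in knockout mice, 7 fell and 2 rose, Des and Myh1. Of 8 slow and oxidative fibre markers 5 rose (median log2 fold change 3.24), and the groups did not overlap for 4 of the 8. Their summed level overlapped, at 353 to 1724 CPM in control mice and 1496 to 2752 CPM in knockout mice. None of 8 adipocyte markers passed the test, 1 at an unadjusted p under 0.05, but their summed level was 36.1 CPM in control replicate 3 against 723 to 1186 CPM in the other controls and 445 to 1975 CPM in knockout mice, with no marker at 0 in any group. Endothelial markers fell in 6 of 8 cases (median -0.67, and -0.0091 with totals alone) and fibroblast markers in 4 of 6 (median -0.65, and 0.012). Of 9 macrophage markers 1 rose, Cd68 (log2 fold change 2.62), and 4 others had an unadjusted p under 0.05. The median of the 9 was 0.86, and 1.53 with totals alone, where 7 of them rose. Their summed level was 80.3 to 208 CPM in control mice and 166 to 309 CPM in knockout mice. The part of these cell markers in the results was not tested, except for the adipocyte markers, which were also fitted as a covariate.

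Of the 44 genes, 20 were lower and 4 higher in the knockout libraries at an adjusted p under 0.01 (edgeR's quasi-likelihood test, Benjamini-Hochberg adjustment over all genes), which is 24 of 44 against a background of 44.7% of all genes called. The background was 21.1% lower and 23.6% higher, and with totals alone 873 lower and 8498 higher of all 14012 genes. Another 7 of the 20 genes that did not pass had an unadjusted p under 0.05. The 4 libraries of each group did not overlap for 23 of the 44 genes, where 53.4% of all genes did not overlap. Of the 22 carnitine shuttle and oxidation genes 12 fell and 2 rose, with a median log2 fold change of -0.45, while the 3 genes that fell with totals alone, Acsl3, Acsl6 and Ucp3, are not among these 22. Among the 22 genes outside them 8 fell and 2 rose, with a median of -0.0091 and a range from -3.11 to 2.36.

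**Figure D1:**
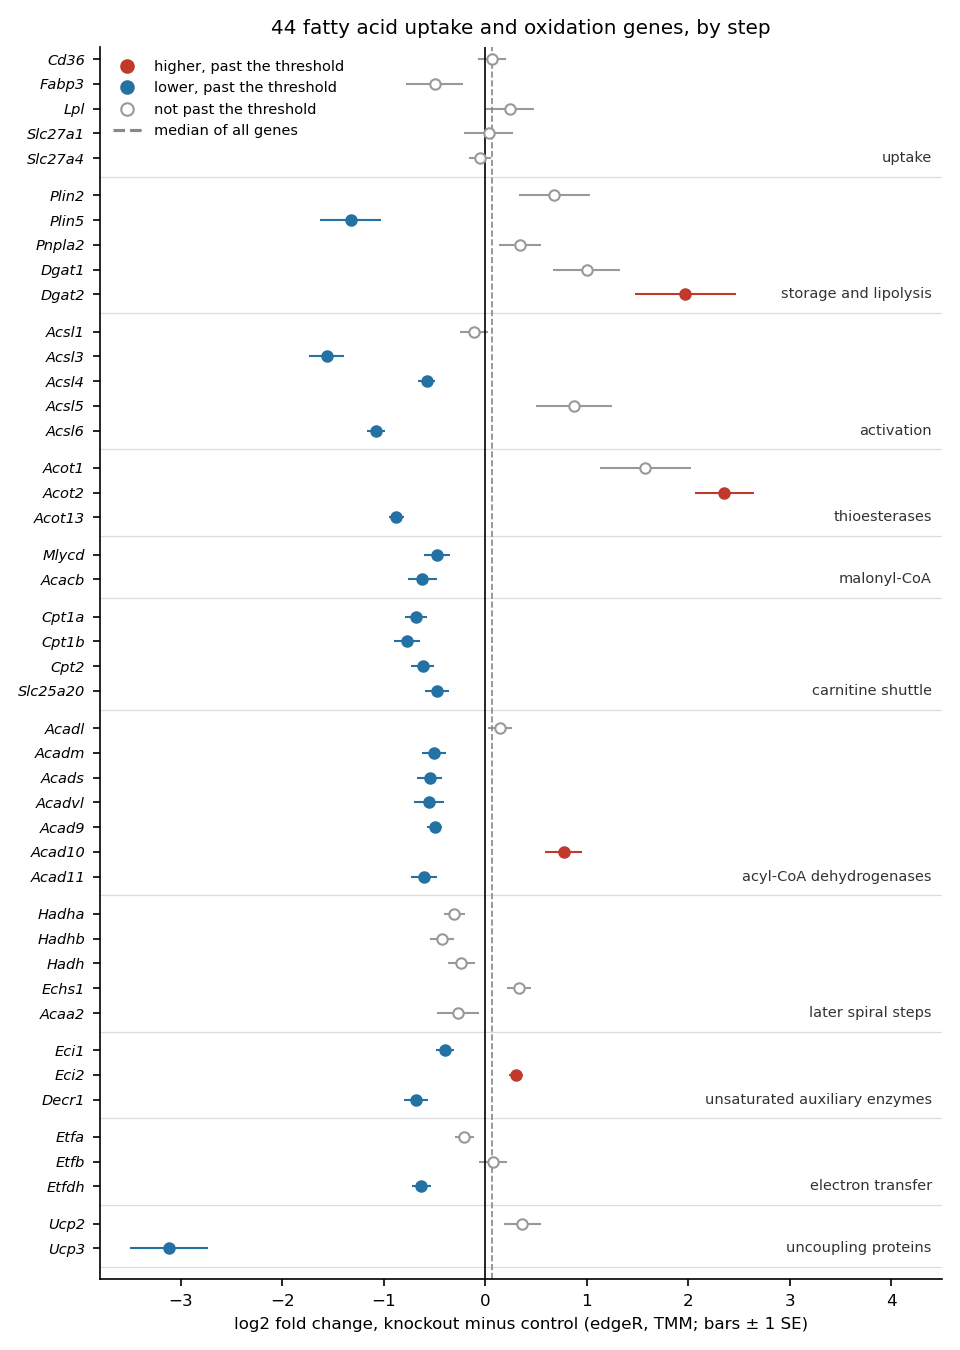
Log2 fold change (x axis, knockout minus control on TMM-scaled libraries, bars ± 1 SE, n = 4 mice per group) of each of the 44 genes (y axis), in the order of the route. Filled points passed an adjusted p of 0.01. The 4 carnitine shuttle genes lie between -0.47 and -0.77 and the 5 uptake genes between -0.50 and 0.24. With library totals alone each point would lie about 0.67 further to the right, which puts 20 genes with negative values above 0.

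The mice within each group differed from each other across the route as a whole. For the 22 carnitine shuttle and oxidation genes, the median log2 CPM relative to the control mean was -0.13, 0.16, -0.089 and 0.034 in control replicates 1 to 4 and -0.20, -0.47, -0.63 and -0.42 in knockout replicates 1 to 4. Knockout replicate 1 lay closest to the controls and knockout replicate 3 farthest below them, and 15 and 19 of the 22 genes, respectively, were below the control mean there. Over all genes the same median was 0.027 to 0.093 in the 4 knockouts.

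**Figure D2:**
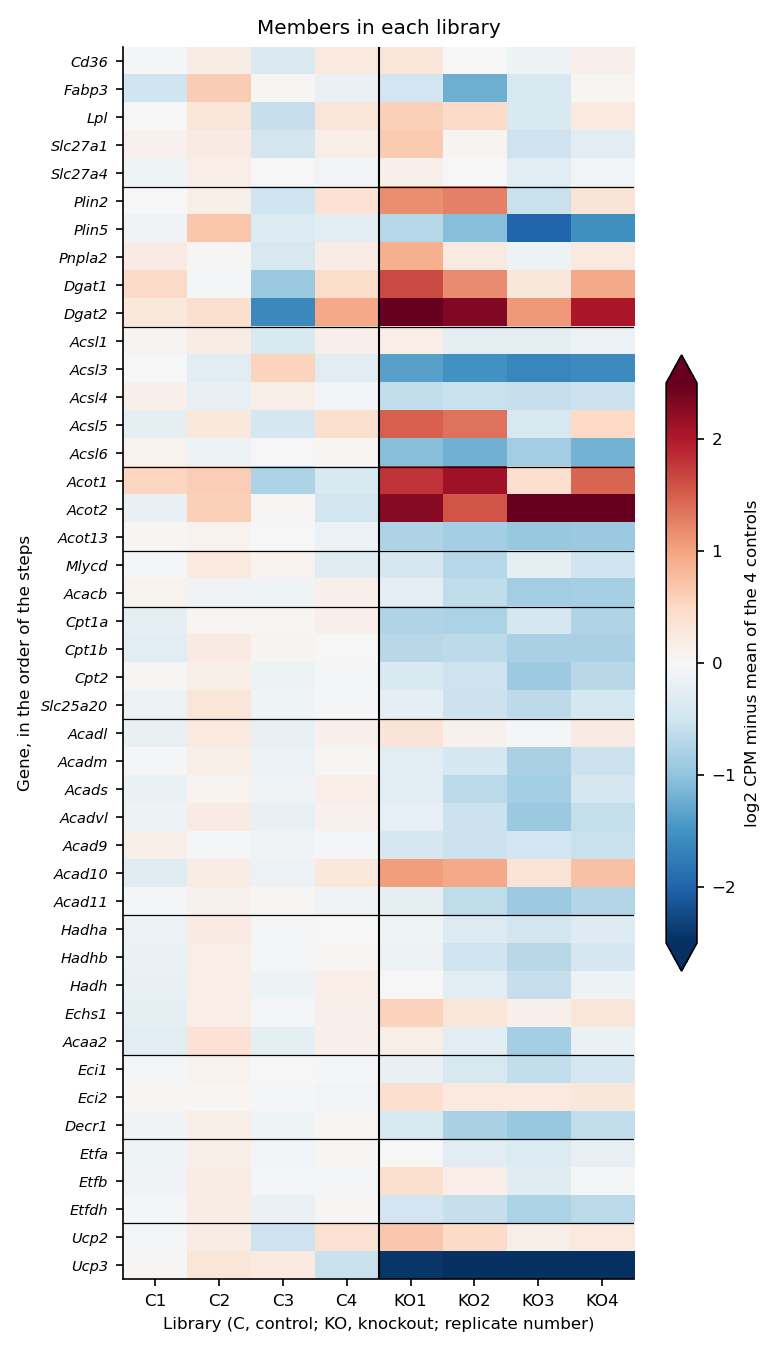
Log2 CPM of each of the 44 genes (rows, in the order of the route) in each of the 8 libraries (columns), minus the mean of the 4 controls, with values past 2.5 in either direction drawn in the end colours. Ucp3 is low and Acot2 high in all 4 knockouts, while Dgat2, Dgat1, Plin2 and Acsl5 also vary within each group. Blue rows without strong colour, such as Hadha or Etfa, would turn above 0 with library totals alone.

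Uptake genes did not pass the test in either direction (0 of 5, also at an unadjusted p under 0.05). Cd36, the main fatty acid carrier of the plasma membrane, was 317, 375, 256 and 390 CPM in control replicates 1 to 4 and 406, 332, 303 and 360 CPM in knockout replicates 1 to 4. The groups overlapped throughout, and the log2 fold change was 0.065 with an SE of 0.14. Fabp3, which binds fatty acids in the cytosol, was 136, 296, 195 and 169 CPM in control mice and 137, 82.2, 145 and 199 CPM in knockout mice. The groups overlapped, and its log2 fold change of -0.50 (SE 0.28, adjusted p = 0.15) was 0.16 with totals alone. GENCODE places exons of genes on the other strand over 19.6% of its exonic bases. Lpl, the lipase that frees fatty acids from circulating lipoproteins, was at 649 ± 166 and 768 ± 207 CPM. Slc27a1, a fatty acid transport protein of muscle and fat, was at 127 ± 24 and 130 ± 48.6 CPM, and its relative Slc27a4 at 17.2 ± 1.5 and 16.6 ± 1.97 CPM (log2 fold change -0.050, 0.62 with totals alone).

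Storage genes moved in both directions. Dgat2, which makes triglyceride from diacylglycerol, had the largest rise of the 5. It was 66.8, 73.1, 18 and 107 CPM in control replicates 1 to 4 and 420, 274, 117 and 228 CPM in knockout replicates 1 to 4. No control library reached a knockout library, knockout replicate 3 only just, and the lowest control was replicate 3, the library with the least adipocyte RNA. The mean rose from 66.2 ± 36.7 to 260 ± 126 CPM, a log2 fold change of 1.97 (SE 0.50, adjusted p = 0.0065 by edgeR). With the mean of the adipocyte markers as a covariate it was 1.44 with an adjusted p of 0.00049. Leaving out control replicate 1 or 2, or knockout replicate 1, 2 or 4, the adjusted p exceeded 0.01, reaching 0.020, and its log2 fold change ranged from 1.61 to 2.30 over the 8 fits without 1 library. Dgat1, the other enzyme of this step, was at 20.1 ± 7.71 and 40.2 ± 15.2 CPM and did not pass (log2 fold change 0.999, SE 0.33, adjusted p = 0.024). The same control replicate was lowest for it, at 9.88 CPM.

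Plin5, which coats lipid droplets and ties them to mitochondria in oxidative tissue, fell. It was 16.7, 28.5, 14 and 14.6 CPM in control mice and 10.7, 8.43, 4.38 and 6.0 CPM in knockout mice. No knockout library reached the lowest control. The log2 fold change was -1.33 (SE 0.30, adjusted p = 0.0037), -0.66 with totals alone, and without knockout replicate 4 its adjusted p was 0.012. Plin2, the droplet coat found in most cells, was at 52.6 ± 12.6 and 84.3 ± 42.1 CPM (adjusted p = 0.12), with knockout replicates 1 and 2 above 114 CPM and knockout replicate 3 at 35.1 CPM, below every control. Pnpla2, the lipase that opens triglyceride breakdown, was at 331 ± 59.0 and 419 ± 132 CPM (adjusted p = 0.18).

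**Figure D3:**
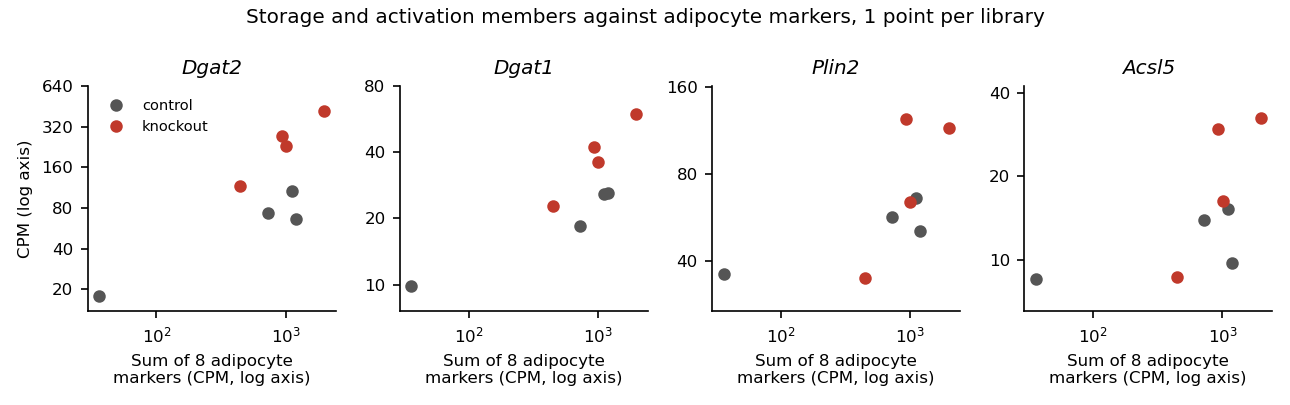
CPM of Dgat2, Dgat1, Plin2 and Acsl5 (y axes, log) against the summed CPM of 8 adipocyte markers (x axes, log), 1 point per library, controls grey and knockouts red. Control replicate 3, at 36.1 CPM of markers, is the lowest point for Dgat2, Dgat1 and Acsl5. The knockout with the fewest markers, at 445 CPM, is the lowest knockout in all 4 panels.

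Acyl-CoA synthetases, which activate fatty acids, split by isoform: 3 of 5 fell and none rose. Acsl3, the form linked to lipid droplet formation at the endoplasmic reticulum, was 61.8, 52.4, 91.9 and 51.6 CPM in control mice and 24.4, 22, 20.1 and 20.6 CPM in knockout mice. All 4 knockouts lay in a narrow range below the lowest control, and the log2 fold change was -1.56 (SE 0.18, adjusted p = 3.9e-05). Acsl6, known best from nervous tissue, was 85.3, 73.3, 80.9 and 82.8 CPM in control mice and 38.3, 35.1, 44 and 35.4 CPM in knockout mice. The groups lay well apart, with a log2 fold change of -1.08 (SE 0.087, adjusted p = 4.8e-06). Both stayed below 0 with totals alone, at -0.88 and -0.41, each past the threshold. Acsl4, which prefers arachidonic acid, fell from 44.5 ± 5.13 to 29.8 ± 0.672 CPM (log2 fold change -0.58, SE 0.085), and was at 0.095 with totals alone.

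Acsl1, the main isoform of muscle, was at 473 ± 78.6 and 437 ± 61.7 CPM (log2 fold change -0.11, SE 0.14; 0.54 with totals alone), so that on the per-length scale of FPKM it took 67.5% ± 6.15 of the sum of the 5 isoforms in control mice and 77.7% ± 1.77 in knockout mice. Over the same sum, Acsl3 went from 9.82% ± 3.92 to 4.03% ± 0.222. Acsl5, known from intestine and liver, was at 9.78, 13.9, 8.52 and 15.2 CPM in control mice. In knockout mice it was at 32.5, 29.7, 8.71 and 16.3 CPM. Knockout replicates 1 and 2 were far above all controls, replicate 4 just above them and replicate 3 near the lowest (adjusted p = 0.067).

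The thioesterases, which split acyl-CoA back to fatty acid and coenzyme A, held the largest rise of the 44 genes. Acot2, the long-chain thioesterase of the mitochondrial matrix, was 18.3, 31.6, 21.3 and 15.1 CPM in control mice and 101, 61.6, 148 and 132 CPM in knockout mice. The lowest knockout was above the highest control, and the mean rose 5.12-fold (log2 fold change 2.36, SE 0.29, adjusted p = 7.9e-05 by edgeR). Acot1, its cytosolic neighbour on chromosome 12, had 5 to 17 counts in the control libraries and 23 to 73 in knockout mice, and its log2 fold change of 1.57 (SE 0.45, adjusted p = 0.012) did not pass. The longest open reading frames of the GENCODE transcripts of Acot1 and Acot2 were 95.5% identical, and 23.5% of the 50-base windows of Acot1 transcripts also occurred in Acot2. Read pairs that fit both were left out by the authors, so both counts are uncertain. Acot13, a smaller thioesterase bound to mitochondria, moved the other way, from 65.4 ± 4.46 to 35.5 ± 2.12 CPM (log2 fold change -0.88, SE 0.074), and was at -0.21 with totals alone.

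Both genes of malonyl-CoA, the inhibitor of carnitine palmitoyltransferase 1, fell, although with totals alone both were above 0. Acacb, which makes malonyl-CoA at the mitochondrial surface, was 617, 549, 539 and 638 CPM in control mice and 499, 374, 321 and 330 CPM in knockout mice. The groups did not overlap, and the log2 fold change was -0.62 (SE 0.14, adjusted p = 0.0035; 0.044 with totals alone; adjusted p = 0.010 without control replicate 4). Mlycd, which breaks malonyl-CoA down, was 93.4, 113, 101 and 77.4 CPM in control mice and 70.9, 57.9, 79.96 and 67.9 CPM in knockout mice. The groups overlapped between control replicate 4 and knockout replicate 3. Its log2 fold change of -0.48 (SE 0.13, adjusted p = 0.0088) was the weakest of the calls: it was 0.19 with totals alone, had an adjusted p of 0.024 with the adipocyte covariate, and exceeded 0.01 in every fit without 1 library except those with control replicate 4 left out or knockout replicate 3, with an adjusted p of at most 0.028.

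All 4 carnitine shuttle genes fell, by similar amounts, but with totals alone 2 of them were above 0. Cpt1a, the liver form of carnitine palmitoyltransferase 1, was 17.6, 21.1, 21.3 and 22.4 CPM in control mice and 12.0, 11.9, 15.3 and 12.2 CPM in knockout mice. Cpt1b, the muscle form, was 6.95, 9.69, 8.73 and 8.25 CPM in control mice and 5.09, 5.27, 4.71 and 4.69 CPM in knockout mice. For both, each knockout library was below each control library, with log2 fold changes of -0.68 (SE 0.11) and -0.77 (SE 0.13) and an adjusted p of 0.00049 for Cpt1a and 0.00047 for Cpt1b. With totals alone they were -0.021 and -0.10. The proportion of the 2 forms differed by less than the spread between mice, as Cpt1a held 62.3% ± 2.17 of the FPKM sum of the pair in control mice and 63.5% ± 3.68 in knockout mice.

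The low count of Cpt1b touches that proportion. Cpt1b had 86 to 148 counts per library, and its 2.93 FPKM in the controls was under the 4.83 FPKM of Cpt1a, although Cpt1b is known as the form of muscle. In GENCODE the readthrough gene Gm44502 covers 81.4% of the exonic bases of Cpt1b on the same strand. The release of the annotation used for the counting is not given in the sources used here, and whether read pairs shared with Gm44502 were dropped was not tested. Cpt2, the inner membrane enzyme, was 81.3, 87.7, 72.5 and 76.9 CPM in control mice and 61.3, 55.4, 42.2 and 48.8 CPM in knockout mice. It fell without overlap (log2 fold change -0.62, SE 0.11, adjusted p = 0.0011; 0.053 with totals alone). Slc25a20, the carnitine and acylcarnitine carrier, went from 71.8 ± 10.8 to 51.8 ± 6.36 CPM (log2 fold change -0.47, SE 0.12, adjusted p = 0.0063; 0.19 with totals alone). Its highest control, replicate 2 at 87.9 CPM, stood apart, and its adjusted p rose to at most 0.015 with control replicate 2 or 4 left out or knockout replicate 2, 3 or 4.

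The acyl-CoA dehydrogenases, which open the spiral, did not move as a block: 5 of 7 fell, 1 rose and 1 did not pass, while with totals alone the 5 were between 0.067 and 0.17. Acadvl, for very long chains, was 336, 421, 323 and 394 CPM in control mice and 316, 252, 192 and 242 CPM in knockout mice. Knockout replicate 1 lay just below the lowest control and the others well below it. Its log2 fold change was -0.56 (SE 0.15, adjusted p = 0.0084; 0.11 with totals alone), and the adjusted p exceeded 0.01, up to 0.028, with control replicate 1, 2 or 4 left out or knockout replicate 2, 3 or 4. Exons of Dvl2 on the other strand cover 42.9% of its exonic bases, and no source used here says whether strand was used in counting. Acadm, for medium chains, fell from 300.2 ± 25.3 to 211 ± 32.3 CPM (log2 fold change -0.51, SE 0.11; 0.16 with totals alone; adjusted p = 0.013 without control replicate 2). Acads, for short chains, fell from 85.8 ± 9.10 to 58.7 ± 10.1 CPM (log2 fold change -0.55, SE 0.13; 0.12 with totals alone), with an adjusted p of at most 0.013 without control replicate 2 or 4.

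Acadl, for long chains, was the exception among these 4. It was 242, 325, 242 and 302 CPM in control mice and 344, 296, 269 and 319 CPM in knockout mice. The groups overlapped, with a log2 fold change of 0.14 (SE 0.12, adjusted p = 0.32). Of the FPKM sum of Acadvl, Acadl, Acadm and Acads, Acadl took 26.99 to 29.3% in control mice and 36.9 to 41.3% in knockout mice, a share that no scaling of a library can change. Acadvl took 33.1 to 33.8% of that sum in control mice and 26.3 to 30.2% in knockout mice. The order of the 4 by mean FPKM was Acadvl, Acadm, Acadl and Acads in the controls, with Acadm and Acadl apart by less than their spread (147 ± 12.7 and 144 ± 22.2 FPKM), and Acadl was first in knockout mice at 154 FPKM.

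The remaining dehydrogenases also differed in direction. Acad9, which also assembles respiratory complex I, fell from 48.6 ± 3.45 to 34.3 ± 1.6 CPM (log2 fold change -0.50, SE 0.070; 0.17 with totals alone). Acad11 fell from 85.9 ± 4.98 to 56.6 ± 11.7 CPM (log2 fold change -0.60, SE 0.13; 0.067 with totals alone). Acad10 was 4.12, 5.83, 4.58 and 6.18 CPM in control mice and 10.6, 9.89, 6.48 and 8.51 CPM in knockout mice, from 51 to 255 counts per library. The groups came close between control replicate 4 and knockout replicate 3. It rose with a log2 fold change of 0.77 (SE 0.19, adjusted p = 0.0052), but its adjusted p was 0.017 with the adipocyte covariate and at most 0.018 with control replicate 1 or 3 left out or knockout replicate 1, 2 or 4.

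None of the 5 genes of the later spiral steps passed the test, 3 at an unadjusted p under 0.05, and their median log2 fold change was -0.27. Hadha and Hadhb, the subunits of the trifunctional protein that carries out the last steps for long chains and whose genes lie side by side on chromosome 5, were at 422 ± 43.7 and 342 ± 37.1 CPM (adjusted p = 0.026) and at 205 ± 19.9 and 153 ± 24.8 CPM (adjusted p = 0.011). Their log2 fold changes were -0.31 and -0.42, and 0.36 and 0.24 with totals alone. Hadh, the short-chain hydroxyacyl-CoA dehydrogenase, was at 176 ± 22.8 and 149 ± 25.6 CPM, and Acaa2, the thiolase, at 148 ± 32.0 and 123 ± 33.2 CPM (log2 fold changes -0.24 and -0.27, and 0.43 and 0.40 with totals alone). Echs1, the short-chain hydratase, lay on the other side: it was 88.1, 116, 99.98 and 114 CPM in control mice and 156, 129, 113 and 128 CPM in knockout mice. The lowest knockout was inside the control range (log2 fold change 0.33, SE 0.12, adjusted p = 0.033).

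The enzymes that prepare unsaturated acyl-CoA for the spiral all passed. Decr1, the dienoyl-CoA reductase, was 117, 139, 116 and 129 CPM in control mice and 94.2, 71.0, 64.5 and 81.9 CPM in knockout mice. No knockout reached the lowest control (log2 fold change -0.69, SE 0.12, adjusted p = 0.00067; -0.021 with totals alone). The isomerases Eci1 and Eci2 went opposite ways. Eci1 fell from 101 ± 3.97 to 76.6 ± 9.13 CPM (log2 fold change -0.39, SE 0.088, adjusted p = 0.0033; 0.28 with totals alone; 0.012 without control replicate 2). Eci2, which is also found in peroxisomes, rose from 60.5 ± 2.5 to 74.6 ± 4.70 CPM (log2 fold change 0.30, SE 0.067, adjusted p = 0.0032), with an adjusted p of 0.010 under the adipocyte covariate and of at most 0.014 without knockout replicate 1 or 4.

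In the electron transfer chain from the dehydrogenases to ubiquinone, the last member fell. Etfdh, the oxidoreductase that hands the electrons to ubiquinone, was 152, 178, 140 and 160 CPM in control mice and 113, 106, 91.1 and 97.7 CPM in knockout mice. The groups were well apart (log2 fold change -0.63, SE 0.094, adjusted p = 0.00027; 0.036 with totals alone). Etfa and Etfb, the subunits of the electron transfer flavoprotein, were at 205 ± 16.6 and 178 ± 18.5 CPM (log2 fold change -0.21, adjusted p = 0.077; 0.46 with totals alone) and at 173 ± 15.9 and 182 ± 37.8 CPM (log2 fold change 0.076, adjusted p = 0.66). GENCODE places other genes on the same strand over 58.3% of the exonic bases of Etfb.

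**Figure D4:**
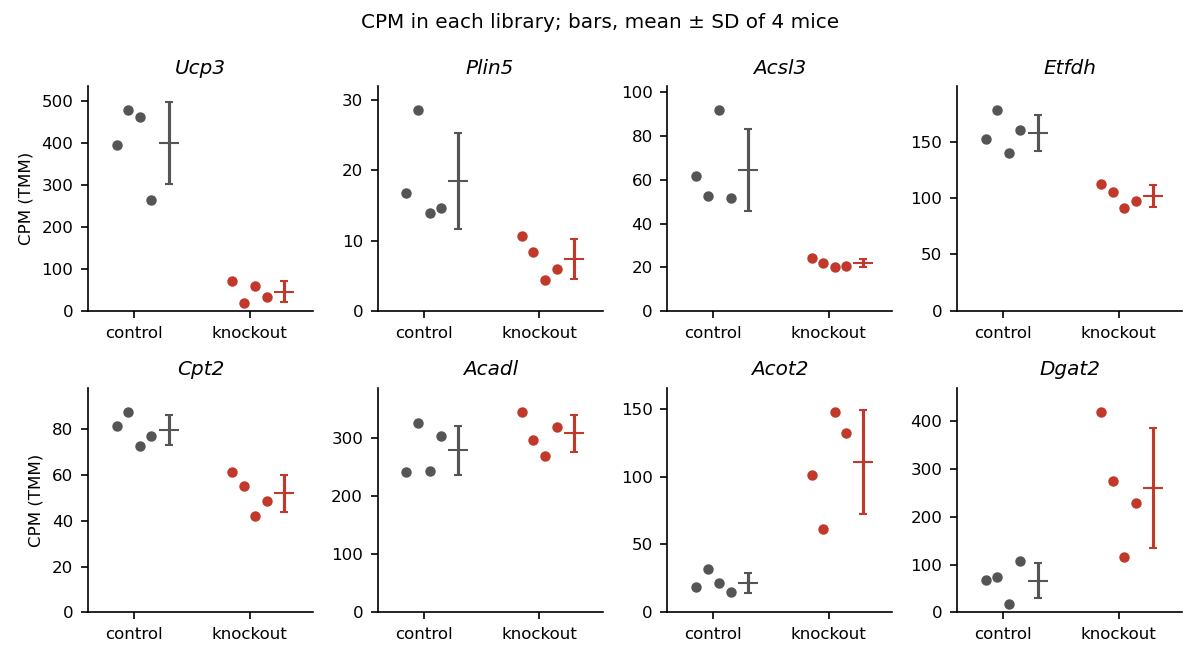
CPM (y axes, from 0, TMM-scaled) of 8 of the genes in each control (grey) and knockout (red) library, with the mean ± SD of 4 mice beside the points. Ucp3, Plin5, Acsl3, Etfdh and Cpt2 are lower in every knockout, Acot2 and Dgat2 higher in every knockout, and Acadl overlaps. With library totals alone Etfdh and Cpt2 would lie slightly above 0 on the log2 scale, at 0.036 and 0.053.

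Ucp3, the uncoupling protein of skeletal muscle that is known to follow fatty acid supply, had the largest fall of the 44 genes. It was 396, 477, 462 and 263 CPM in control replicates 1 to 4 and 72.3, 19.7, 60.1 and 32.2 CPM in knockout replicates 1 to 4. The lowest control was far above the highest knockout, and the mean fell from 399 ± 97.8 to 46.1 ± 24.3 CPM. The log2 fold change was -3.11 (SE 0.38, adjusted p = 7.2e-05 by edgeR), 8.66-fold lower in knockout mice, and -2.46 with totals alone. Ucp2, the form of most other tissues, was at 20.5 ± 5.16 and 26.5 ± 4.51 CPM (log2 fold change 0.36, adjusted p = 0.11). By FPKM, Ucp3 made up 86.7 to 95.5% of the sum of the pair in control mice and 31.2 to 63.7% in knockout mice.

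Ratios of paired genes within a library do not depend on the scaling between libraries, and 7 pairs were compared by a two-sided exact permutation test, whose smallest possible p with 4 against 4 is 0.0286. The log2 ratio of Ucp2 to Ucp3 was -4.28 ± 0.71 in control mice and -0.64 ± 0.87 in knockout mice, a difference of 3.64 (exact p = 0.0286, adjusted p over the 7 pairs = 0.05). That of Plin2 to Plin5 went from 1.54 ± 0.49 to 3.42 ± 0.36 and that of Dgat2 to Dgat1 from 1.56 ± 0.56 to 2.63 ± 0.20, both higher in every knockout with the same exact p. The ratio of Etfa to Etfb was lower in every knockout, though knockout replicate 3, at 0.198, lay just under the lowest control at 0.201, and the difference was -0.26 with the same exact p. The log2 ratio of Hadha to Hadhb was 1.04 ± 0.042 in control mice and 1.17 ± 0.079 in knockout mice (difference 0.13, exact p = 0.057, adjusted p = 0.080). The ratios of Acsl4 to Acsl1 (difference -0.46, exact p = 0.11) and Cpt1a to Cpt1b (difference 0.076, exact p = 0.66) overlapped. Without any 1 library no ratio can go below an exact p of 0.057.

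**Figure D5:**
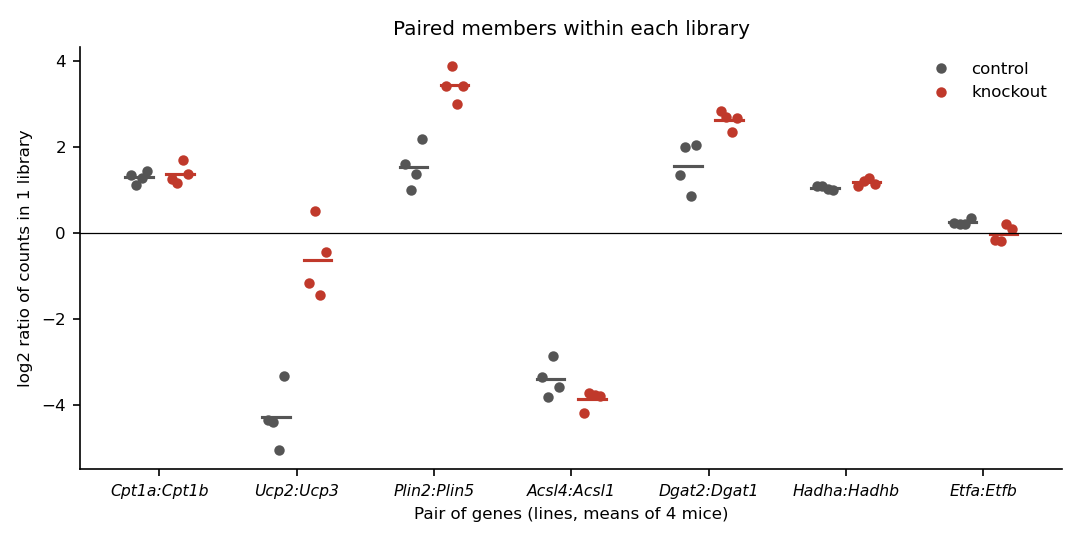
Log2 ratio of counts (y axis) of 7 pairs of genes (x axis) in each control (grey) and knockout (red) library, with lines at the means of 4 mice. Ucp2:Ucp3, Plin2:Plin5 and Dgat2:Dgat1 are higher in all 4 knockouts than in any control, and Cpt1a:Cpt1b overlaps.

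By level per length in the controls, the genes spanned 0.490 FPKM for Acot1 to 314 ± 109 FPKM for Fabp3. After Fabp3 came Etfb at 193 ± 17.9, Acadvl at 170.1 ± 21.7, Ucp3 at 165 ± 40.3 and Lpl at 162 ± 41.8 FPKM, and the last 3 differed by less than their spread. Ucp3 stood at 18.5 FPKM in knockout mice. The 44 genes together took 0.455 to 0.628% of the counts in control mice and 0.582 to 0.923% in knockout mice, without any scaling.

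The stretch before the start site was read for the genes because many of them are known targets of nuclear receptors, which bind AGGTCA. RefSeq promoter sequences on GRCm38.p6 were at hand for 36 of the 44 genes, and the 250 bases before the start were searched on both strands. AGGTCA or its reverse complement TGACCT stood in at least 1 promoter of 9 of these 36 genes (25%) and of 15.8% of all 27025 genes with a promoter. The 9 were Acadm, Acadvl, Acsl6, Cd36, Cpt1a, Echs1, Plin2, Plin5 and Ucp3, of which 6 fell, out of 16 genes that fell and had a promoter. The form AGGTCANAGGTCA, with 2 copies 1 base apart, was in none of the 36 and in 11 of all genes. The longer TCAAGGTCA, which contains AGGTCA, was in Acsl6 alone and in 0.42% of all genes. A match of letters shows neither binding nor a cause. Not shown are Acadvl, which also fell, and Cd36, Echs1 and Plin2, which hold the motif and did not pass the test. Shown are 5 genes that fell and hold the motif, with it in capitals, and Acot2, the gene with the largest rise, which has no match in this window.
Ucp3 promoter (chr7:100472741-100472990, plus strand): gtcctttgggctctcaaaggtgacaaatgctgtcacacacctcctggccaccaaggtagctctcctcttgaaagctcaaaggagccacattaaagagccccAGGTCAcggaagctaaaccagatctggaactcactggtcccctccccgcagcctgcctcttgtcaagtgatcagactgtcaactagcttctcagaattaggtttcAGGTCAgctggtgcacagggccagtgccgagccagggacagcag
Plin5 promoter (chr17:56117549-56117798, minus strand): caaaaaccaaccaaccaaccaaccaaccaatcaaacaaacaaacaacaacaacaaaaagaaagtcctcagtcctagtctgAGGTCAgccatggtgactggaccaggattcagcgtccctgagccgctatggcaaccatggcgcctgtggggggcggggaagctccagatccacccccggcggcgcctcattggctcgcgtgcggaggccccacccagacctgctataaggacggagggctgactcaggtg
Cpt1a promoter (chr19:3323051-3323300, plus strand): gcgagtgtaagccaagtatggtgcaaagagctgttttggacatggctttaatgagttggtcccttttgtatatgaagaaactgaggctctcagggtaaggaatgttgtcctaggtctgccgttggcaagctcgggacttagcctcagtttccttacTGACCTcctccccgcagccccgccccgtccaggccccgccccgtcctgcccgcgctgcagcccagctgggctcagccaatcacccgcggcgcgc
Acadm promoter (chr3:153944644-153944893, minus strand): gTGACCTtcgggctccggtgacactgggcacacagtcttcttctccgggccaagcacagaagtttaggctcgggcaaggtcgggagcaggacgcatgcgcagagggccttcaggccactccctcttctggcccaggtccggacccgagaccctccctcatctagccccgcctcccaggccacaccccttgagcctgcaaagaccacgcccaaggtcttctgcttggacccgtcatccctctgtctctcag
Acsl6 promoter (chr11:54303574-54303823, plus strand): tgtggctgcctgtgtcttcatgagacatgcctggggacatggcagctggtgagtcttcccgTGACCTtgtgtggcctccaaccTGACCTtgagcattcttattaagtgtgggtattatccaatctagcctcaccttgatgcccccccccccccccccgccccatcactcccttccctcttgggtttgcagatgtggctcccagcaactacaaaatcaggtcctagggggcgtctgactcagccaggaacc
Acot2 promoter (chr12:83987611-83987860, plus strand): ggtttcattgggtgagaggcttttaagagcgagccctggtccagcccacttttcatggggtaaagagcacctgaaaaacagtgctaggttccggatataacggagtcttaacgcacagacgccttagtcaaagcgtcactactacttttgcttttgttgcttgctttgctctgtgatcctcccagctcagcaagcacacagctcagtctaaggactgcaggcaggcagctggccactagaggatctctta

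The promoters of Ucp3 and Acsl6 hold 2 copies each and those of Plin5, Cpt1a and Acadm 1 copy each, so the number of copies differs among genes whose log2 fold changes ranged from -3.11 for Ucp3 to -0.51 for Acadm. For Plin5 and Acsl6, which have several promoters in the table, only the one with the motif is shown.

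Around the 44 genes, 100 further genes of the same biology were looked at in 7 lists. Of the 100, 32 fell and 16 rose, with a median log2 fold change of -0.089. Of all genes 21.1% fell and 23.6% rose, the background also for the counts of each list below. With totals alone 12 of the 100 fell and 44 rose, where 873 of all 14012 genes fell and 8498 rose. Among 22 regulators of fatty acid oxidation 11 fell and 3 rose (median -0.37, and 0.30 with totals alone). Regulatory subunits of AMP-activated kinase found mainly in muscle fell: Prkab2 from 686 ± 169 to 125 ± 29.8 CPM (log2 fold change -2.46, SE 0.21) and Prkag3 from 197 ± 24.4 to 59.4 ± 3.01 CPM (-1.73, SE 0.094). Of the catalytic subunits, Prkaa2, the form of muscle, fell (-1.02, SE 0.11) and Prkaa1 rose (0.50, SE 0.079). The retinoid X receptors, which pair with the PPARs, were lower for Rxrg (-2.22, SE 0.18) and Rxra (-1.48, SE 0.086).

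Among the receptors themselves, Ppara was at 24.6 ± 8.20 and 18.2 ± 5.36 CPM and did not pass (adjusted p = 0.18). Its log2 fold change was -0.44, and 0.22 with totals alone. Ppard fell slightly (log2 fold change -0.29, SE 0.073, and 0.37 with totals alone), with an adjusted p of 0.013 under the adipocyte covariate. Pparg, the receptor of adipocytes, was at 9.05 ± 4.1 and 19.9 ± 9.31 CPM (adjusted p = 0.036). The estrogen-related receptors parted. Esrra fell from 142 ± 6.85 to 78.9 ± 5.89 CPM (-0.85, SE 0.073), while Esrrg, the form of slow muscle and heart, was 8.56, 20.8, 15.7 and 23.5 CPM in control mice and 112, 103, 114 and 109 CPM in knockout mice. Every knockout held more than 4 times the level of the highest control (log2 fold change 2.67, SE 0.24, adjusted p = 9.5e-06), beside the rise of 5 of 8 slow and oxidative fibre markers. Ppargc1a, the coactivator of both receptor families, fell with overlapping groups (-0.54, SE 0.14, adjusted p = 0.0090; 0.13 with totals alone; adjusted p = 0.023 with the adipocyte covariate). Tfeb (-1.24), Sirt3 (-0.65; 0.0073 with totals alone) and the corepressor Ncor1 (-0.51; 0.16 with totals alone) also fell, and Sirt1 rose (0.64).

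Known PPAR targets outside the 44 genes fell in 3 of 7 cases and rose in 2 (median log2 fold change -0.71, and -0.042 with totals alone). Pdk4, which holds back glucose oxidation when fat is burnt, was 1569, 2680, 2480 and 2002 CPM in control mice and 534, 88.1, 446 and 170 CPM in knockout mice. The groups were far apart, at a log2 fold change of -2.82 (SE 0.50, adjusted p = 0.00084). Pdk2 (-0.71; -0.042 with totals alone) and Retsat (-0.76; -0.089) also fell. Fgf21, a secreted hormone, is also named by the study as a cytokine gene of the integrated stress response, and which of these links its level follows was not tested. It had no count in any control library and 430 to 787 counts in knockout mice. There it was at 26.3 ± 7.92 CPM, at least 125-fold above the mean level that 3 counts per control library would give. The median of the list was the same with Fgf21 at this bound.

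Ketone body genes fell in 4 of 6 cases and rose in 1, and with totals alone 2 fell and 2 rose. Bdh1, which interconverts the main ketone bodies, was 9.13, 21.3, 12.2 and 26.8 CPM in control mice and 1.38, 1.01, 1.65 and 3.02 CPM in knockout mice, without overlap (log2 fold change -3.29, SE 0.41, adjusted p = 7.4e-05). Oxct1, the enzyme that lets muscle use ketone bodies, fell from 535 ± 106 to 171 ± 28.8 CPM (-1.64), and Acat1 fell slightly (-0.47; 0.20 with totals alone). Slc16a1, a carrier of ketone bodies and lactate, rose from 42.1 ± 4.87 to 105 ± 9.50 CPM. Among 15 other droplet and lipolysis genes 5 fell and 2 rose (median log2 fold change -0.26). With totals alone 2 of them fell and 6 rose (median 0.40). G0s2, the inhibitor of the lipase made by Pnpla2, was 7.59, 8.12, 5.65 and 12.9 CPM in control mice and 89.0, 189, 55.4 and 96.3 CPM in knockout mice (log2 fold change 3.64, SE 0.39, adjusted p = 2.9e-05). Each knockout was above each control. Lpin1 (-1.77), Fitm1 (-1.33) and Gpam (-1.06), which act in triglyceride synthesis and droplet formation, fell, as did Fitm2 (-0.93) and Plin4 (-0.88), and Bscl2 rose (0.84; adjusted p = 0.011 with the adipocyte covariate).

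Of 23 other mitochondrial acyl-CoA genes 8 fell and 4 rose (median log2 fold change -0.065). With totals alone 1 fell and 11 rose (median 0.59). Besides Hsd17b10 (0.78), Them4 (0.70) and Mcat (0.36), which rose, Acot9, a thioesterase of the matrix, went up from 21.4 ± 1.29 to 48.8 ± 2.56 CPM (log2 fold change 1.19, SE 0.070), while the largely cytosolic Acot7 fell (-1.16). Crat and Crot, the carnitine acyltransferases for short and medium chains, fell by similar amounts, with log2 fold changes of -1.04 and -0.99. Of 12 other uptake genes 1 fell, the lipoprotein receptor Vldlr (-0.77), and 1 rose, Fabp5 (1.40, SE 0.30), which is known from adipocytes, macrophages and endothelium. With totals alone 0 of the 12 fell and 4 rose. Of 15 fatty acid synthesis genes none fell and 3 rose, Acss2 (1.06), Fads1 (0.99) and Elovl1 (0.96), with a median of 0.99. With totals alone 0 of the 15 fell and 9 rose. Fasn, the fatty acid synthase, was 704, 612, 28.7 and 1131 CPM in control mice and 4678, 3469, 634 and 1823 CPM in knockout mice. Its lowest libraries in both groups were replicates 3, which also held the least adipocyte RNA, and it did not pass (adjusted p = 0.060). With the adipocyte covariate 5 of the 15 rose, Acaca, Acly, Elovl1, Elovl6 and Fasn (log2 fold changes 0.94 to 1.82), and Acss2 and Fads1 were not among them (adjusted p = 0.015 and 0.011). Vldlr was at -0.11 with totals alone.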

How the data were processed

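RNA of QF muscle was measured in 8 libraries, 4 per group and 1 per mouse. Per the labels' processing notes and the study's methods, the authors trimmed read pairs with cutadapt, mapped them to GRCm38 with STAR 2.5.4b and counted those on exons, leaving out duplicate, chimeric, multimapping and poorly mapped pairs and genes with few reads. The table deposited by the authors holds raw counts per gene and FPKM, which the authors made from these counts with DESeq2's size factors and the exon width. Its columns of fold changes, p-values, adjusted p-values and mean signal from DESeq2 1.32.0 were not used, and 0 columns of values per sample were left without a library. The labels name TRIzol and the methods an extraction kit. The annotation release and the strand setting of the counting are not given in the sources used here.

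All 14012 genes were fitted on the deposited counts with edgeR 4.0.16 in R 4.3.3 (quasi-likelihood test, TMM, group as the only term, Benjamini-Hochberg over all genes, adjusted p under 0.01). Log2 CPM used a prior count of 2, and count ratios one of 0.5. At 95% confidence no count is compatible with up to 3 counts, a limit for counting error only. The 44 genes and all lists were chosen with earlier results of these data known. All 44 genes are accounted for. Outside them, the text names per list up to 4 genes past the threshold with the largest change and a mean of at least 1 CPM in a group, and every regulator past it; some listed genes are counted but not reported here by name. Ppara, Pparg, Acat1, Fitm2, Plin4, Bscl2, Hsd17b10, Them4, Mcat, Acaca, Acly, Elovl6, Fasn, Cd68, Des and Myh1 were named after their values were seen. Of 103 further genes listed, 100 were in the table. Exon overlaps and open reading frames came from GENCODE vM21 and promoters from RefSeq. Alternatives were RLE, upper-quartile and total-count scaling, a filter on low counts, DESeq2 1.42.0, thinning to equal library totals, a threshold of 0.05, the replicate number as a block, an adipocyte marker covariate and each library left out. In a test on simulated data, with 13944 genes and 200 changed, the share recovered was 96% at a log2 change of 2 and 68% at 1, and 2 unchanged genes were called. The simulated libraries had far fewer changed genes than these data and no shift in composition between the groups. How many false calls such a shift gives was therefore not tested.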

Additional observations from a re-analysis of the deposited data

Results flagged for a closer look

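For 102 sets of 4 libraries, the CPM of each gene and the ratio of each pair in each group, the gap of the highest or lowest library to the rest was set against the range of its group. Chance alone flags about 1 in 20 such sets, and 3 were flagged. Cpt1a was at 15.27 CPM in knockout replicate 3, where the other knockouts were between 11.9 and 12.2 CPM. Slc25a20 was at 87.85 CPM in control replicate 2 and between 65.0 and 68.8 CPM in the other controls. The log2 ratio of Acsl4 to Acsl1 was -4.19 in knockout replicate 1 and between -3.79 and -3.72 in the other knockouts.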

How the results depend on the processing

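Scaling by library totals alone changed most. With it 3 of the 44 genes were lower and 17 higher, and 12 and 44 of the 100 further genes. Of all 14012 genes, 873 were lower and 8498 higher with it. The median of the 44 genes turned to 0.32, still 0.41 below that of all genes. Signs turned for Fabp3 (0.16), Slc27a4 (0.62), Acsl1 (0.54), Acsl4 (0.095), Mlycd (0.19), Acacb (0.044), Cpt2 (0.053), Slc25a20 (0.19), Acadm (0.16), Acads (0.12), Acadvl (0.11), Acad9 (0.17), Acad11 (0.067), Hadha (0.36), Hadhb (0.24), Hadh (0.43), Acaa2 (0.40), Eci1 (0.28), Etfa (0.46) and Etfdh (0.036). The other scalings, a low-count filter, thinning and DESeq2 left 40 to 44 of the 44 genes on their side of the threshold with their sign. Slc27a1, near 0, turned to -0.019 with RLE factors, -0.019 with DESeq2 and -0.016 with the replicate block.

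At an adjusted p under 0.05, 7 of the 44 genes were higher. With the adipocyte covariate 2 were higher, as Acad10 and Eci2 did not pass, and Cd36 was at -0.075 and Slc27a1 at -0.20. The covariate fit of the further genes was added after the data were seen.

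The correlation of the deviations of same-numbered libraries was 0.12, 0.0031, 0.42 and 0.14 for numbers 1 to 4. Control replicates 1, 3 and 4 matched the knockout of their own number best and control replicate 2 matched number 1. As number 2 showed next to no correlation and the labels name no shared litter or day, the numbers were not taken as pairs. With the number as a replicate block 19 of the 44 genes were lower and 6 higher, and 25 of the further genes were higher.

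Leaving out each library in turn gave 14 to 20 lower genes (14 without control replicate 2) and 1 to 6 higher (1 without knockout replicate 1 or 4, 2 without control replicate 1 or knockout replicate 2, 6 without knockout replicate 3). Of the 24 calls, 13 held in all 8 fits and none changed sign. Cd36 ranged from -0.043 to 0.15, Slc27a1 from -0.26 to 0.14, Slc27a4 from -0.13 to 0.0089 and Etfb from -0.068 to 0.15. The knockout minus control differences of the log2 ratios ranged from -0.033 to 0.14 for Cpt1a to Cpt1b, 3.26 to 3.96 for Ucp2 to Ucp3, 1.71 to 2.10 for Plin2 to Plin5, 0.84 to 1.23 for Dgat2 to Dgat1 and -0.34 to -0.21 for Etfa to Etfb. With 3 libraries against 4 no ratio can reach 0.05.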
